A study of Cucumis sativus with 33 samples.

Results

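In corollas of female cucumber flowers (Cucumis sativus), 30 of 23248 genes shared a late surge. Their reads climbed steeply into the yellow bud, both on plants bearing normal ovaries and on plants bearing super ovaries, and stayed near that level in the open flower. The genes were selected on group means of RPM, the reads of a gene per 1000000 reads of its library. In normal ovaries a member had at least 10 RPM in the yellow bud of day 4 (N4), at least 8 times its mean in the green bud of day 1 (N1), and under 25% of the N4 mean in the green yellow bud of day 3 (N3). Its mean in the open flower of day 5 (N5) lay between 0.5 and 2 times N4. In super ovaries its mean on day 8 (S8) was at least 8 times that of day 1 (S1), and on day 9 (S9) it was at least 10 RPM and between 0.5 and 2 times S8. These 7 groups chose the members, so their values are given as a description with no test. Days 3, 4, 5 and 7 of the super course (S3, S4, S5 and S7) were not used to choose them.

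All libraries came from inbred line 6457 grown in a greenhouse, with the topmost female flowers of the main stem bagged against pollination, and each library pooled 5 corollas. Super ovaries formed under adequate fertilizer and water with 1 fruit kept per plant, from the female flower closest to the growing point. Normal ovaries formed under fertilizer and water deficiency with 1 or 2 fruits kept from other flowers of the plant. Nutrition, water, fruit load and the position of the fruits kept thus changed together and cannot be told apart. Days were counted from the day the ovary was labeled. Per the series' design text, S1 was a green bud, S3, S4 and S5 were green yellow buds, S7 and S8 yellow buds and S9 the open flower, and normal flowers mostly opened on day 5 against day 9 for super flowers. Each of the 11 groups had 3 libraries, and nothing states that these came from separate plants, so p-values measure the spread between pools. Totals per library, worked out from the steps between low values, were 16858675 to 24643185 reads. Replicates correlated across genes at 0.9936 or above on the log2(RPM + 1) scale, except for S7 replicate 3, at 0.978 and 0.986 with the other S7 libraries. Most counts of members that rest on S7 are therefore also given without it. Shares of all genes without it are given only where stated.

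Petals together form the corolla, whose opening gives pollinators access to the flower. In its last days petal cells generally enlarge by taking up water into loosened walls, chloroplasts give way to carotenoid-bearing plastids in yellow petals, and scent and defence compounds begin to be made. Hormones, sugar supply and the daily light cycle are known to time the final step. The files give identifiers without names, and 0 of 23248 identifiers matched the RefSeq gene table of assembly Cucumber_9930_V3, so no role can be given to any member and lists of genes by function could not be formed. Nor could the tissue be checked against known petal genes. Identifiers are printed for 3 members, and the others are called by their rank in N4 mean, from member 1 to member 30. RPM does not correct for gene length, so this rank orders reads and not transcripts. In pooled tissue, fewer cells of a type and less RNA per cell cannot be told apart.

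Most genes with the surge did not keep their level at flowering. The limits on N1, N3 and N4 left 226 genes with a surge into the normal yellow bud. Of these, 161 had less than 0.5 times their N4 mean in N5, 10 had more than 2 times as much, and 55 stayed within 2-fold. Over all 23248 genes, 16067 had an N5 mean within 2-fold of N4. The 226 were picked for an N4 high above N1 and N3, so a fall after N4 is partly built into the choice. The limits on the super course reduced the 55 to 30. A further 16 genes met every limit but the last, with S9 under 0.5 times S8 in 10 and over 2 times S8 in 6.

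The limits on rises and on retention were close to some members. Member 6 had an N4 mean 8.30 times its N1 mean, and the nearest gene outside had 7.59 times. Member 22 had 24.5% of its N4 mean in N3, and the nearest gene outside had 25.03%. Member 10 kept 0.504 of its N4 mean in N5 and member 3 kept 0.503 of its S8 mean in S9, while the nearest genes outside kept 0.490 and 0.487. At the other end, member 30 had 1.64 times its N4 mean in N5 where the nearest gene outside had 2.03, and member 17 had 1.86 times its S8 mean in S9 where the nearest outside had 2.06. Member 7 had the smallest rise of the super course, 9.17 times, and the nearest gene outside had 6.37. The lowest level in N4 was 12.4 RPM in member 30 against 2.89 RPM in the nearest gene outside, and the lowest S9 mean was 19.5 RPM, with no gene kept out by that limit alone. Membership depended on the scaling. With libraries rescaled by their median gene ratio, the limits held for 47 genes, 26 of them members.

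Together the members took a small share of each library, and it was close between ovary types in the green bud, the yellow bud of N4 and S8, and the flower. Their summed level was 267 ± 27.9 RPM (SD, n = 3) in N1, 725 ± 41.6 in N3, 6983 ± 301 in N4 and 5866 ± 70.9 in N5. In super ovaries it was 249 ± 3.24 RPM in S1, 324 ± 20.1 in S3, 437 ± 14.4 in S4 and 769 ± 126 in S5, then 2184 ± 93.5 in S7, 6972 ± 378 in S8 and 5747 ± 173 in S9. The level of N4 was thus 0.698% of the library and that of S8 0.697%. Among the groups not used by the rule, all 3 S7 libraries (2079 to 2257 RPM) lay above all S5 libraries (632 to 881 RPM), and all S5 libraries above all S4 libraries (426 to 453 RPM). Member 1 alone made up 38.0% of the sum in N4 and 29.4% in S8, and without it the sums were 4327 ± 60.6 RPM in N4 and 4921 ± 357 in S8.

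**Figure D1:**
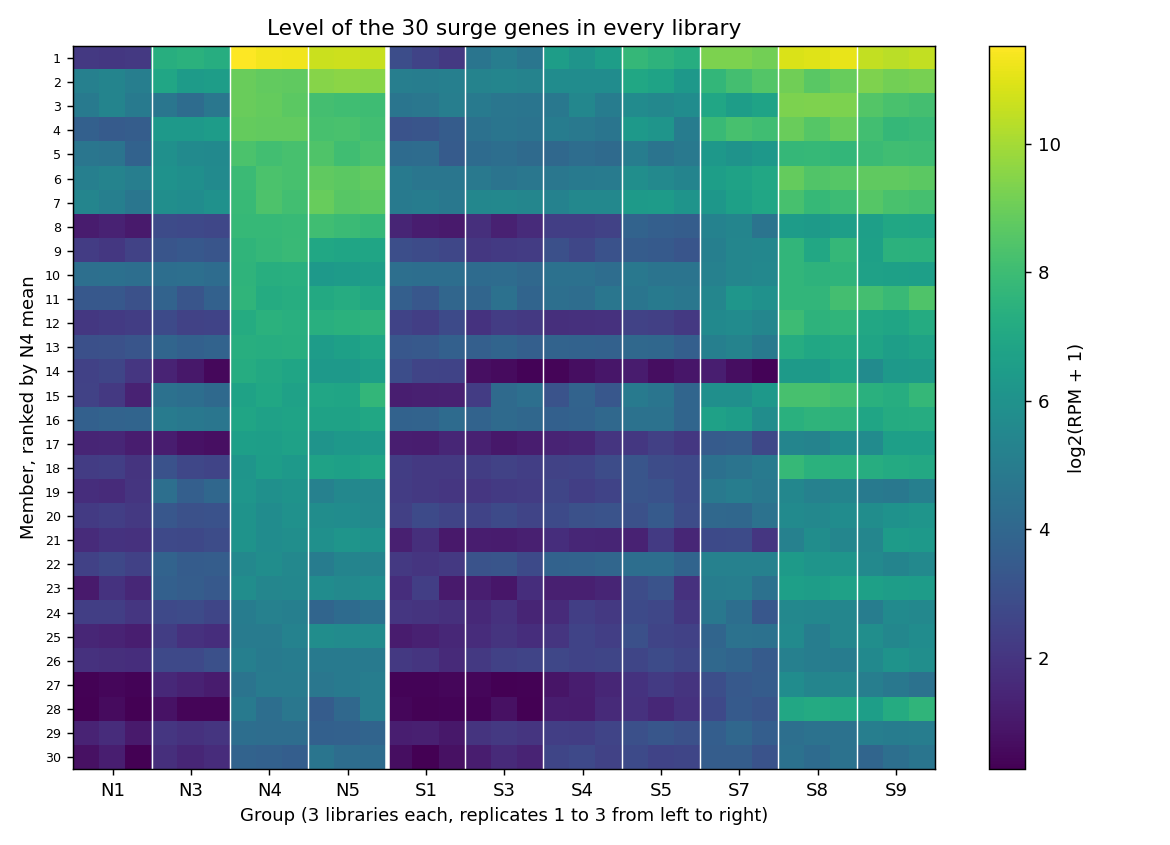
Level of the 30 members in all 33 libraries on the log2(RPM + 1) scale, 1 row per member in the order of its N4 mean and 1 column per library, with the normal course left and the super course right of the thick line. The rows brighten between N3 and N4 and, later in days, between S5 and S8, and stay bright in N5 and S9, while member 14 is dark in all libraries of S3 to S7.

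Csa3G872170 (member 1) held the most reads of the set in N4 and, on the log2(RPM + 1) scale, had the largest change from S3 to S5 of the 30. Its N1 libraries had 3.32, 3.20 and 3.32 RPM, its N3 libraries 157, 177 and 154, its N4 libraries 2942, 2540 and 2486, and its N5 libraries 1587, 1602 and 1549. In super ovaries it went from 6.53, 4.81 and 3.43 RPM in S1 to 24.1, 31.7 and 24.6 in S3, 92.7, 66.6 and 91.2 in S4, and 219, 183 and 155 in S5. It then stood at 636, 621 and 557 RPM in S7, 1907, 1999 and 2246 in S8, and 1455, 1317 and 1448 in S9. From S1 to S8 no library of one group overlapped a library of the next, so the gene climbed through all sampled bud stages. In the groups outside the rule it rose at each step. Changes are on the log2(RPM + 1) scale, where those of low genes come out too small. For this gene limma gave a change of 1.60 (SE 0.14, adjusted p 1.2e-08) from S3 to S4, 1.15 (SE 0.14, adjusted p 6.3e-06) from S4 to S5 and 1.71 (SE 0.14, adjusted p 1.9e-10) from S5 to S7. Without S4 replicate 2 the step from S4 to S5 was 0.99, just under the 2-fold limit for a call.

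Csa2G416080 (member 2) started from a higher base and had smaller fold changes. It had 34.9, 40.1 and 32.4 RPM in N1, 119, 86.7 and 92.3 in N3, 490, 447 and 442 in N4, and 716, 765 and 736 in N5. Its super libraries had 32.96, 31.7 and 34.1 RPM in S1, 38.3, 40.9 and 38.3 in S3, 52.9, 51.8 and 53.2 in S4, and 123, 110 and 76.4 in S5. In the late buds and the flower it had 209, 281 and 362 RPM in S7, 544, 399 and 472 in S8, and 641, 555 and 584 in S9. Unlike member 1, it was highest at flowering in both courses, and neither N5 and N4 nor S9 and S8 overlapped. The change was 1.34 (SE 0.15, adjusted p 1.2e-07 by limma) from S3 to S5 and 1.45 (SE 0.15, adjusted p 9.1e-09) from S5 to S7. S7 replicate 3 was the highest of its S7 libraries.

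Members 3 and 5 show the range of shapes among the members with most reads. Member 3 had 28.0, 39.1 and 28.0 RPM in N1, 24.3, 18.1 and 25.5 in N3, 491, 471 and 411 in N4, and 285, 268 and 257 in N5. In super ovaries its mean was 26.0 RPM in S3, 33.1 in S4 and 49.6 in S5. Its log2 change from S3 to S5 was 0.91 (SE 0.16, adjusted p 4.0e-05 by limma), under the 2-fold limit. It then had 122, 92.9 and 109 RPM in S7, 632, 643 and 640 in S8, and 362, 315 and 285 in S9. It was thus highest in the yellow bud and clearly lower in the flower of both courses. Member 5 had 326, 274 and 301 RPM in N4 and 342, 264 and 314 in N5, groups that overlapped, and 218, 221 and 213 in S8 and 244, 271 and 256 in S9. From S5 to S7 both rose, by a log2 change of 1.10 for member 3 (SE 0.16, adjusted p 1.0e-06 by limma) and of 1.37 for member 5 (SE 0.17, adjusted p 1.9e-07).

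**Figure D2:**
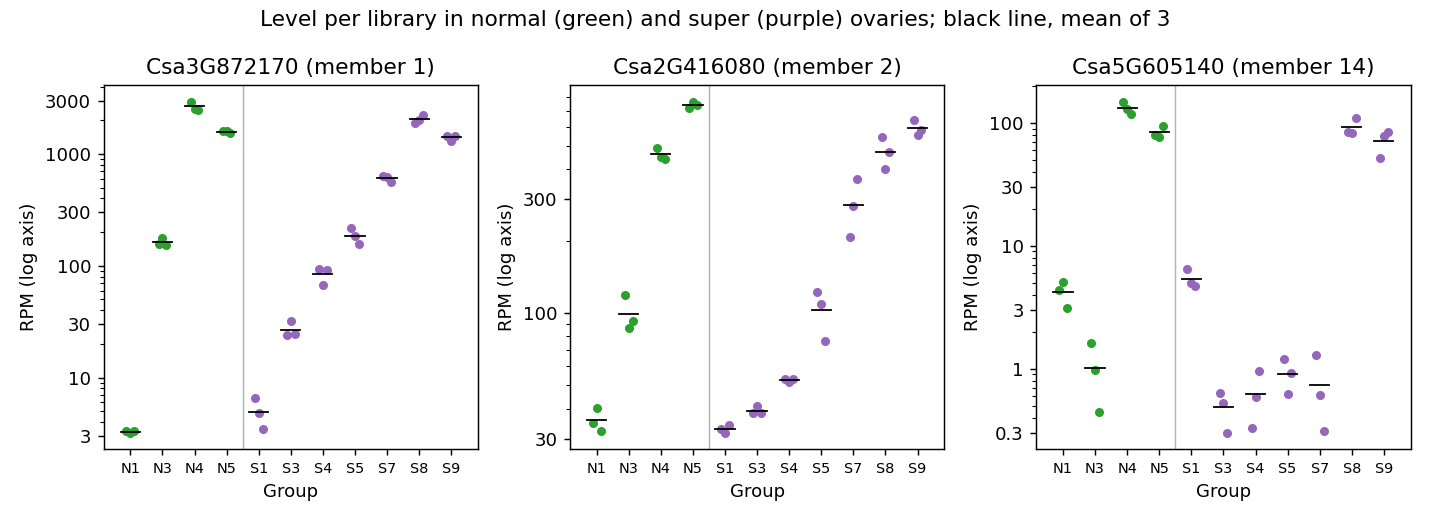
RPM of 3 members in every library by group, on log axes that differ between panels; points are libraries (normal ovaries green, super ovaries purple) and black lines the mean of 3. Csa3G872170 climbs at every step to S8, Csa2G416080 is highest in N5 and S9, and Csa5G605140 stays at 1.30 RPM or below in all libraries of S3 to S7 before reaching 82.4 RPM or more in S8.

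The first question about the super course was whether these genes already moved inside the long green yellow bud stage, from day 3 to day 5. The fit covered the 18905 genes whose mean reached 1 RPM in some group, all 30 members among them. Calls required a 2-fold change or more with an adjusted p below 0.05. In S5 against S3, 12 of 30 members rose and none fell, where 2.45% of all genes tested were called higher and 2.03% lower. All 30 had a positive change, with a median of 0.88 on the log2 scale beside 0.02 over all genes tested. A gene that must be 8 times higher in S8 than in S1 has to climb somewhere between, so some rise in these groups follows from the choice of members, and the counts say when it fell and not that it occurred. With a pseudocount of 5, which damps low genes, 4 of the 30 were called, beside 188 of 18905 genes higher. edgeR on recovered reads called 15, beside 809 of 18905.

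The other large changes between S3 and S5 were in members 8 and 27, both of them low in the green bud. Member 8 had 2.42, 1.49 and 2.13 RPM in S3 and 13.2, 11.9 and 10.9 in S5, a log2 change of 2.12 (SE 0.15, adjusted p 2.3e-11 by limma). Member 27 had 0.39, 0.21 and 0.25 RPM in S3 and 2.74, 3.51 and 2.93 in S5, a log2 change of 1.66 (SE 0.16, adjusted p 5.8e-09). The S3 values of member 27 stood for 3 to 7 reads per library. In both, every S5 library lay above every S3 library, and in S5 the members stood at 13.6% and 6.70% of their S8 means. The rank of member 1 above member 27 in this step depended on the pseudocount. With a pseudocount of 0.1 the log2 change was 3.06 in member 27 and 2.79 in member 1. By edgeR it was 3.62 and 2.78.

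Day by day the movement was smaller. From S3 to S4, 2 members rose (members 1 and 30) and none fell, beside 0.825% of all genes called higher and 0.973% called lower. Member 30 had 1.26, 2.08 and 1.63 RPM in S3 and 5.21, 5.63 and 4.63 in S4, a log2 change of 1.22 (SE 0.19, adjusted p 4.5e-05 by limma), and 5.84, 4.70 and 5.04 in S5. The S4 and S5 libraries overlapped. From S4 to S5, 5 members rose (1, 4, 8, 15 and 23) and none fell, beside 0.936% of all genes called higher and 0.27% lower. That count was 3 without S4 replicate 3, without S5 replicate 1 or without S5 replicate 2. Over all genes, 223 of 18903, 135 of 18904 and 155 of 18911 were called higher in these fits. Each of the 3 omissions ended the calls of members 4 and 15, and member 15 also lost its call without S4 replicate 1. Member 23 had the largest of these changes, from 1.36, 1.35 and 1.66 RPM in S4 to 6.36, 7.90 and 2.66 in S5 (log2 change 1.34, SE 0.27, adjusted p 1.2e-03), with S5 replicate 3 well below the other two. The count for S3 to S4 was 5 with a pseudocount of 0.1 and by edgeR, and 1 with a pseudocount of 5. Of 18905 genes, 282, 258 and 65 were called higher under these settings. The count for S4 to S5 was also 1 with a pseudocount of 5, beside 66 genes.

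Between the last green yellow bud and the first yellow bud, from S5 to S7, most members rose. The test called 24 of 30 higher and none lower, beside 3.25% of all genes tested called higher and 8.64% lower. The median change was 1.33 on the log2 scale for the members and -0.19 over all genes tested. Rescaling the libraries brought the general median to -0.02, and 25 members were then called. Over all genes the split was 615 higher and 1633 lower, and 881 higher and 966 lower after rescaling. Without S7 replicate 3, 24 were called, beside 843 of 18902 genes higher. edgeR on recovered reads called 27, beside 1400 of 18905 genes higher. A pseudocount of 5 left 17, beside 390 of 18905. This step spans 2 days and shares the S5 libraries with the step before it.

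**Figure D3:**
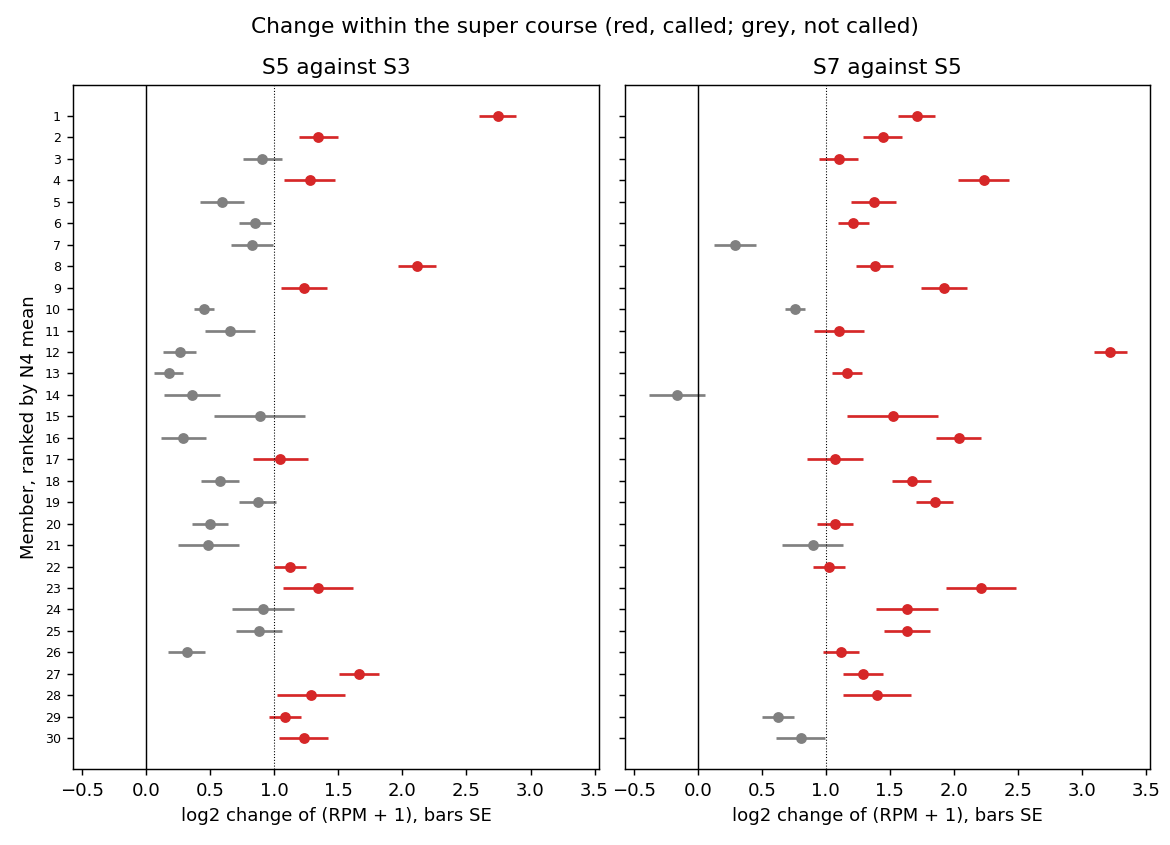
Log2 change of RPM + 1 in every member from S3 to S5 (left) and from S5 to S7 (right), with bars of 1 SE from the limma fit; red points were called, grey points were not, and the dotted line marks 2-fold. On the left 12 points are red and all lie right of 0, and on the right 24 are red, member 12 is farthest right at 3.22 and member 14 lies left of 0 at -0.16.

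Member 12 had the largest change of this step. It had 2.76, 3.78 and 3.32 RPM in S3, 2.44, 2.52 and 2.61 in S4 and 4.65, 4.34 and 3.42 in S5, and then 47.3, 51.2 and 42.0 in S7. Every S7 library was far above every S5 library, after 3 groups in which the gene had stayed low. The log2 change from S5 to S7 was 3.22 (SE 0.13, adjusted p 9.1e-16 by limma). Member 4 followed, from 80.8, 69.2 and 31.1 RPM in S5 to 235, 298 and 270 in S7 (log2 change 2.23, SE 0.20, adjusted p 4.4e-10). It was already moving in S5, where replicate 3 was still near its S4 level of 30.7, 27.0 and 24.0 RPM. Without S5 replicate 3 its change from S5 to S7 was 1.82. Member 23 went from the S5 values above to 31.9, 32.5 and 20.7 RPM in S7 (log2 change 2.21, SE 0.27, adjusted p 1.3e-07).

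The smallest changes that were called lay close to the limit. Member 22 changed by 1.03 (SE 0.12, adjusted p 9.6e-08 by limma), and members 17 and 20 by 1.07 each. Leaving out a single library put each of them under 2-fold, at 0.88 for member 22 without S5 replicate 3. Member 17 came to 0.95 without S7 replicate 1 and 0.92 without S7 replicate 2, and member 20 to 0.95 without S5 replicate 3 and 0.92 without S7 replicate 3. Member 11 likewise came to 0.95 without S7 replicate 2, and member 26 just missed the limit without S7 replicate 1. Members 7, 10, 14, 21, 29 and 30 were not called in this step. Of these, members 10, 21, 29 and 30 had changes of 0.76, 0.90, 0.63 and 0.80 with adjusted p of 6.2e-09, 2.0e-03, 9.7e-05 and 7.6e-04, under the 2-fold limit only. Member 7 had 83.1, 85.7 and 67.0 RPM in S5 and 72.8, 101 and 119 in S7, groups that overlapped (log2 change 0.29, adjusted p 0.13).

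By group means, 15 of the 30 members rose at every step of the super course from S1 to S8, and member 14 was not among them. S1 and S8 enter the rule, so this count is a description, and it was not recounted without S7 replicate 3. Csa5G605140 (member 14) had the lowest share of its S8 mean in S7 of all members, 0.802%, and it is named because of its values. It had 6.48, 4.95 and 4.71 RPM in S1, and then 0.63, 0.53 and 0.30 in S3, 0.33, 0.59 and 0.95 in S4, 1.19, 0.62 and 0.92 in S5, and 1.30, 0.61 and 0.31 in S7. On day 8 it had 83.9, 82.4 and 110 RPM, and on day 9 51.6, 78.1 and 84.2. Its libraries of S3 to S7 overlapped and all lay below its S1 libraries, so the gene went down after the green bud, stayed down through day 7 and came up within a day. The normal course had the same shape, with 4.41, 5.05 and 3.09 RPM in N1, 1.61, 0.97 and 0.44 in N3, 150, 131 and 118 in N4, and 79.6, 77.6 and 95.3 in N5. In the 3 tested steps of adjacent groups its changes were 0.12, 0.24 and -0.16 on the log2 scale, none of them called, and the smallest adjusted p was 0.48. The S7 values stood for 5 to 22 reads per library, and without S7 replicate 3 the last of these changes was positive. A lower level in the green yellow bud than in the green bud was not general among members. The S3 libraries lay wholly below the S1 libraries in 4 members (9, 10, 12 and 14), beside 29.9% of all genes tested, and the N3 libraries wholly below the N1 libraries in 2 (members 3 and 14), beside 49.2%. Upper limits on N1, N3 and S1 are part of the rule, so nothing is read from these counts.

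How much of the day 8 level was present earlier varied widely between members. The median member stood at 5.52% of its S8 mean in S3, 7.19% in S4, 11.2% in S5 and 29.2% in S7. In S7 the range ran from 0.802% in member 14 to 72.3% in member 19, and 4 members had passed 50% (2, 4, 19 and 29). Without S7 replicate 3, 7 members had, with 16, 24 and 30 added, and the range was 1.03% to 74.8% with the same members at its ends. Member 19 had 8.42, 7.64 and 5.75 RPM in S5, 27.5, 31.7 and 26.7 in S7 and 42.9, 36.4 and 39.6 in S8, and had the highest share of its day 8 level on day 7. At the other end, member 28 had 2.69, 1.86 and 2.60 RPM in S5, 5.82, 9.98 and 8.34 in S7 and 129, 139 and 131 in S8, so that 6.05% of its day 8 level was there on day 7. Member 18 had 12.6% and member 21 11.6%. Measured as the change on the log2(RPM + 1) scale, the largest step of the super course lay between S7 and S8 for 17 members, between S5 and S7 for 9, between S1 and S3 for 3 (members 1, 15 and 29) and between S3 and S4 for 1 (member 30). Without S7 replicate 3 the first of these counts was 16 and the second 10. The last of these intervals to S8 spans 1 day where S5 to S7 and S1 to S3 span 2. The place of member 30 depended on the scale. By ratio of means its rise from S1 to S3, 3.19 times, was larger than that from S3 to S4, 3.11 times. From S7 to S8, 26 members were at least 2-fold higher with no overlap of libraries, beside 6.68% of all genes tested, and 23 were without S7 replicate 3. S1 and S8 are part of the rule, so the percents of S8, the counts of largest steps and this last count are a description. Where the largest step lay over all genes was not counted. Over the 3 S7 libraries, the median percent of the S8 mean was 29.5, 30.4 and 26.4, so S7 replicate 3 was the lowest, and without it the median was 31.3%.

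**Figure D4:**
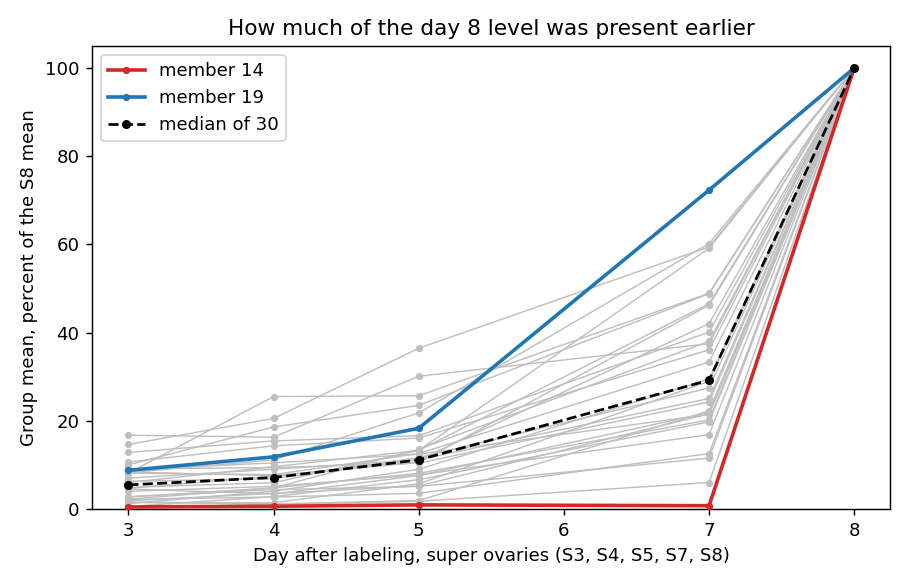
Group mean of each member in S3, S4, S5 and S7 as a percent of its S8 mean, by day after labeling; grey lines are members (19 in blue, 14 in red), the dashed black line is their median, and all lines meet at 100 on day 8 by construction. The median is 11.2% on day 5 and 29.2% on day 7, with member 19 at 72.3% and member 14 at 0.802% on day 7.

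The share of the yellow bud level present before it can be set side by side in the 2 courses. Across the 30 members, the percent of the N4 mean present in N3 and the percent of the S8 mean present in S7 had a Pearson correlation of 0.70 (Spearman 0.70), and with S5 in place of S7 it was 0.57 (Spearman 0.61). Without S7 replicate 3 the first was 0.68. The 2 measures share no library, but each member enters both with the same gene length and sequence, and N3, N4 and S8 all chose the members, so the values describe the set and support nothing further. Member 19 had 23.7% of its N4 mean in N3, and members 14 and 28 had 0.757% and 1.96%. Member 8 had 2.55% of its N4 mean in N3 and 38.1% of its S8 mean in S7. Member 23 had 22.9% in N3, 5.76% in S5 and 29.0% in S7.

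On day 3, when corollas of both ovary types were green yellow buds, most members were lower in super ovaries. The S3 mean was below the N3 mean in 26 of 30, with a median ratio of 0.637 beside 1.15 over all genes tested. The libraries did not overlap in 20 of the members that were lower in S3, beside 23.9% of all genes tested, and 12 members were at least 2-fold lower with no overlap, beside 6.86%. Member 23 had the lowest ratio, 0.141, with 12.0, 10.8 and 9.53 RPM in N3 and 1.31, 0.91 and 2.33 in S3. Csa3G872170 had a ratio of 0.165. In the last green yellow bud of super ovaries, members differed from N3 in both directions. The S5 mean was above the N3 mean in 18 members and below it in 12, at a median ratio of 1.13 beside 1.17 over all genes tested, and the ratios ran from 0.385 in member 21 to 5.00 in member 28. The libraries did not overlap in 12 of the former and 6 of the latter, beside 49.9% and 17.3% of all genes tested. N3 enters the rule through its upper limit, and no test was made.

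In the yellow bud, S7 lay below N4 in all 30 members, with no overlap of libraries in 29 (15.9% of all genes tested) and a median ratio of 0.341. Without S7 replicate 3 these were again 30 and 29, and the median ratio was 0.319. S8 and N4 were closer. The median ratio of S8 to N4 was 1.12, and 4 members were at least 2-fold higher in S8 with no overlap and 2 at least 2-fold lower, beside 13.2% and 7.24% of all genes tested. At flowering the median ratio of S9 to N5 was 1.10, and 4 members were at least 2-fold higher in S9 and 1 lower, beside 4.58% and 4.51%. In the green bud the median ratio of S1 to N1 was 0.983, and 0 members were at least 2-fold higher and 1 lower (member 15), beside 1.76% and 0.91%. Member 15 had 4.67, 3.35 and 1.57 RPM in N1 and 1.29, 1.39 and 1.43 in S1, and without N1 replicate 1 it no longer met that limit. All of these groups but S7 enter the rule, so the ratios are a description.

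Member 28 differed most between the ovary types. It had 0.21, 0.53 and 0.23 RPM in N1 and 0.38, 0.27 and 0.31 in S1, which stood for 3 to 10 reads in the libraries where reads were recovered. Its N4 libraries had 28.8, 18.8 and 25.2 RPM and its N5 libraries 10.5, 16.0 and 31.8. In super ovaries it had 129, 139 and 131 RPM in S8 and 95.4, 145 and 200 in S9. Every S8 library was above every N4 library and every S9 library above every N5 library, with ratios of means of 5.48 and 7.56, while the green bud groups overlapped. Both flowering groups were widely spread.

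The other members at least 2-fold higher in the super flower with no overlap were members 29, 24 and 11. Member 29 had 18.9, 18.7 and 18.8 RPM in N4 and 12.2, 12.5 and 13.7 in N5, against 19.8, 21.5 and 21.9 in S8 and 32.7, 30.7 and 31.9 in S9. It was close between ovary types in the yellow bud (ratio 1.12) and apart at flowering (ratio 2.48). Members 24 and 11 had ratios of S9 to N5 of 2.38 and 2.11. In the yellow bud the other members at least 2-fold higher in super ovaries were members 15, 18 and 23, with ratios of S8 to N4 of 2.60, 2.36 and 2.08.

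Member 8 was the lowest in super ovaries relative to normal ones at both late stages. It had 222, 220 and 228 RPM in N4 and 264, 247 and 213 in N5, against 87.7, 82.3 and 94.7 in S8 and 95.9, 126 and 120 in S9. The ratios of means were 0.395 and 0.472, with no overlap in either stage, while in the green bud it had 1.19, 1.5 and 1.11 RPM in N1 and 1.67, 1.21 and 1.08 in S1. Member 17 had a ratio of S8 to N4 of 0.446 and caught up at flowering (ratio 1.10, libraries overlapping). Members 19 and 12 had the next lowest ratios at flowering, 0.714 and 0.737. Across members the log2 ratios of S8 to N4 and of S9 to N5 had a Pearson correlation of 0.66 (Spearman 0.50). Member 28 lies far from the rest in both. These 2 ratios share no library.

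Within the 2-fold band set by the rule, members differed in whether the yellow bud or the flower was higher. The N4 mean was above the N5 mean in 16 members, and the S8 mean above the S9 mean in 17. The same stage was higher in both courses for 17 members, 10 in the yellow bud and 7 in the flower. In the normal course the N5 libraries lay wholly below the N4 libraries in 12 members and wholly above in 6, beside 27.4% and 49.5% of all genes tested. In the super course S9 lay wholly below S8 in 12 and wholly above in 6, beside 25.5% and 40.6%. The contrasts are those of the rule, and nothing is read from these shares. The step was downward without overlap in both courses for 7 members (1, 3, 4, 10, 13, 19 and 22), and upward in both for Csa2G416080 alone. How many of all genes had the same step in both courses was not counted. Across members the log2 ratios of N5 to N4 and of S9 to S8 had a Pearson correlation of 0.32 (Spearman 0.34), over ratios that the rule holds between 0.5 and 2 in both courses.

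**Figure D5:**
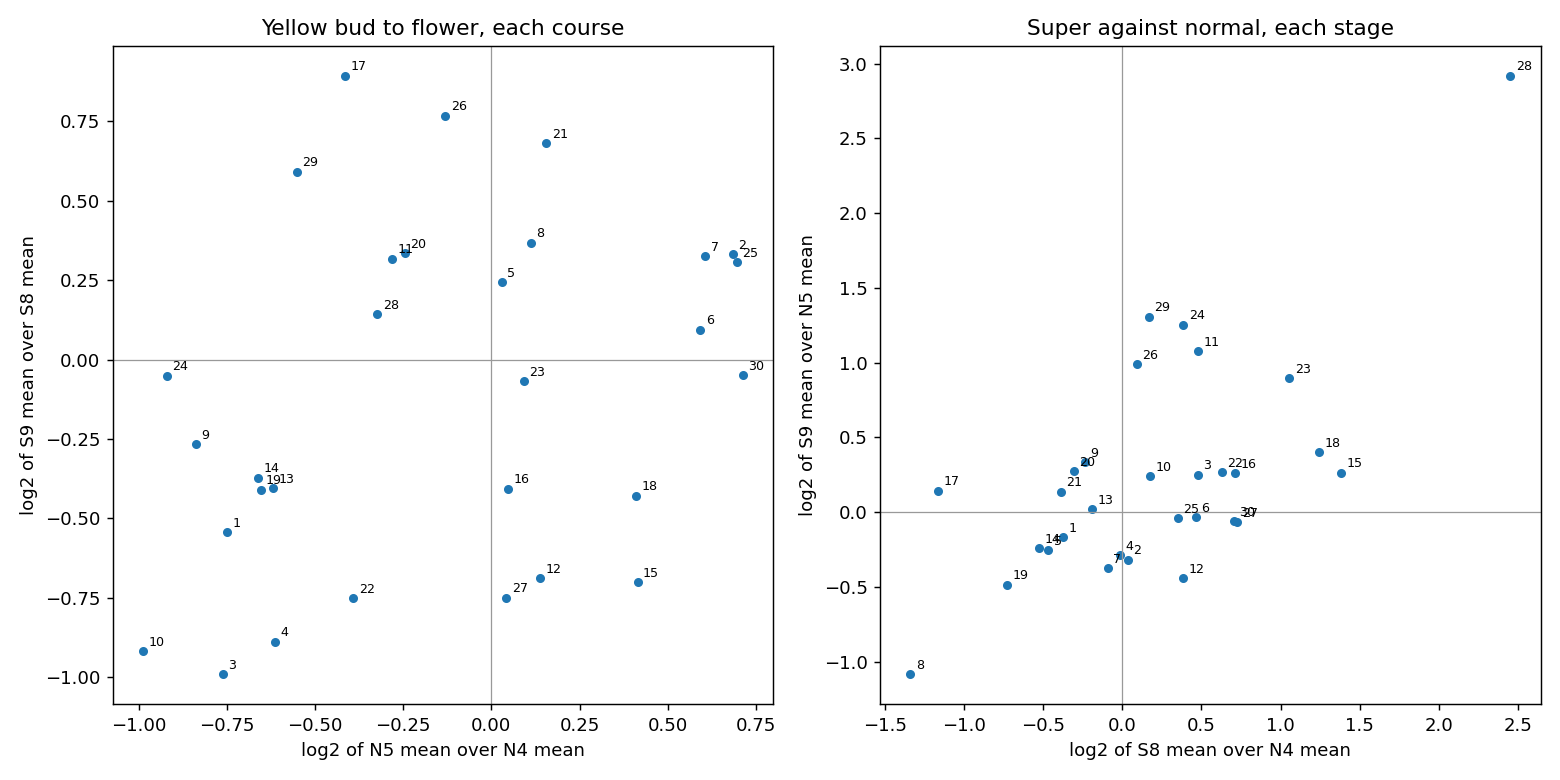
Left, log2 ratio of the flower to the yellow bud, with N5 over N4 on the horizontal and S9 over S8 on the vertical axis, both held between -1 and 1 by the rule; right, log2 ratio of super to normal ovaries, with S8 over N4 horizontally and S9 over N5 vertically. Points are members labelled by rank. On the left members lie on both sides of 0 on both axes, and on the right member 28 is alone at the upper right and member 8 at the lower left.

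The Pearson correlation across the 30 members of log2 means was 0.97 between N1 and S1, 0.89 between N4 and S8 and 0.90 between N5 and S9. Each member enters both groups of a pair with its own gene length and base composition. The median coefficient of variation between replicates, over members, was 19.5% in S7, 17.1% in S5 and in S1, and 15.3% in N1. It was between 12.6% and 13% in N3, S3, S4 and S9, and 9.67% in N4, 9.72% in S8 and 8.20% in N5. In S5 the summed level had the widest relative spread of any group. S5 replicate 3 had the lowest sum of that group, 632 RPM against 881 and 794. It was the lowest S5 library in most members, with 2, 4 and 23 among them. Without it, 15 members were called higher from S3 to S5, beside 555 of 18906 genes. From S5 to S7, 22 were then called higher, beside 522 of 18906. The identifiers of 9 members (30%) begin with Csa5G, as do 3053 of all identifiers (13.1%). Another 7 members (23.3%) begin with Csa3G beside 20.4% of all, 6 (20%) with Csa6G beside 16.4%, and none with Csa7G beside 10.2%. The files do not state what these letters stand for.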

How the data were processed

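RNA-seq of 33 corolla libraries was deposited by the authors as 1 table of RPM, the reads of each gene per 1000000 reads. The submitters' processing notes name TopHat and HTSeq. Versions, genome build and annotation remain not given in the sources used here. Columns summed to 999976 to 1000019 and no value was 0. Low values were whole multiples of a step, with 100% of values up to 2000 steps within 0.25 of a whole step in every library. Reads were taken as steps minus 1. In 3 libraries (N5, S1 and S4 replicate 2) a stricter check of whole reads was not met, and they were left out of edgeR.

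Members were chosen by fixed limits on group means, and members and lists were chosen with earlier results of these data known. R 4.3.3 and limma 3.58.1 served for the tests, made on log2(RPM + 1), with 33 libraries in 1 fit of 11 group means, moderated variances with a trend, two-sided, for 18905 genes with a mean of at least 1 RPM in a group. P-values were adjusted by Benjamini-Hochberg over all of them. The script was tested on simulated data. edgeR 4.0.16 was an alternative.

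Text names the 5 members with most N4 reads, the largest and smallest called changes, the extreme ratios of S9 to N5 and members at the limits. Without gene names, identifiers were printed for the first 2 and for 1 member singled out after its values were seen. The main fit had no replicate block, since nothing in the labels says that a number marks a shared plant or harvest. Same-numbered libraries deviated together in S3 and S4 (correlations of 0.236 to 0.372), so a fit with the replicate block was run as an alternative. Other alternatives were pseudocounts of 0.1 and 5, filters, rescaling by median gene ratios and leaving out each library. A read was worth 0.0406 to 0.0593 RPM, which limits low values.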

Additional observations from a re-analysis of the deposited data

Results flagged for a closer look

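The last step, from the yellow bud to the flower, went in opposite directions in the 2 ovary types for 2 members, with no overlap of libraries. Of all genes tested, 27.4% lay wholly lower and 49.5% wholly higher in N5 than in N4. From S8 to S9 these shares were 25.5% and 40.6%. How many of all genes had opposite steps was not counted, so nothing is read from the number of such members. Member 18 had 69.5, 91.7 and 80.3 RPM in N4 and 106, 101 and 113 in N5, but 223, 176 and 171 in S8 and 152, 139 and 132 in S9. Its ratio of S9 to S8 was 0.559 times its ratio of N5 to N4. Member 29, with its values given above, went down in the normal course and up in the super course, and its ratio of S9 to S8 was 2.21 times its ratio of N5 to N4. The difference between the courses was not tested, since these groups chose the members.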

How the results depend on the processing

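The number of members was 36 with rises of 6-fold, 20 with rises of 12-fold and 47 after rescaling, and 27 to 32 when any library of the 7 groups was left out, with 26 to 30 members shared. The members rising from S3 to S4 numbered 2. They were 5 when 0.1 was added to RPM, 1 when 5 was added, and 5 in the edgeR fit. From S4 to S5 they numbered 5, or 1 with a pseudocount of 5. They were 3 to 6 when a library was left out, beside 118 to 253 of all genes tested called higher. From S3 to S5 they numbered 12, or 4 with a pseudocount of 5. From S5 to S7 every alternative stayed within 1.5 times of 24. Members at least 2-fold apart between S1 and N1 numbered 1, and 0 to 2 when a library was left out, being 2 without S1 replicate 2. The median level of S7 relative to S8 was 29.2%, or 24.6% after rescaling. No called change reversed direction under any alternative run. With the replicate block, the same numbers of members rose: 2 from S3 to S4, 5 from S4 to S5, 12 from S3 to S5 and 24 from S5 to S7. Over all 18905 genes tested, 156, 176, 463 and 613 were called higher in these steps. Outside S3 and S4 the same-numbered libraries of these groups correlated at -0.016 to 0.288. The causes of these shifts were not tested. For members under 1 RPM a few reads set the value, and 3 reads was the lowest count of any member in a library. The counts of S7 against N4 and S8, of largest steps and of members past 50% without S7 replicate 3 were added after seeing the data.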
